A study of Mus musculus with 17 samples.

Results

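Cd8a and Cd8b1 encode the α and β chains of CD8, the co-receptor with which killer T cells bind MHC class I. The chromatin of both genes was read in mouse thymocytes from every enriched interval ("island") of 12 histone libraries, and every Tcf1 peak, that overlaps the mm9 window chr6:71260000-71340000. The window was set to hold Cd8b1, Cd8a and their enhancers. It contained 48 of 346699 islands and 5 of 7807 Tcf1 peaks. The histone libraries came from 3 groups of mature thymocytes, each with 1 library for H3K4me3, H3K27ac, H3K9ac and H3K27me3. WT CD8 were wild-type CD8 cells with high TCRβ and without CD69 or CD24, which selects the mature ones. DKO CD8 were sorted in the same way from mice labelled Tcf1-/-Lef1-/-, in which CD4-Cre had deleted both factors. WT CD4 were wild-type CD4 cells by title and source name, although their phenotype field names CD8. Tcf1 was mapped in TCRβ-high CD8 cells of wild-type spleen, with the same antiserum in Tcf1-/- spleen cells (CD4-Cre) as control, so the Tcf1 peaks describe another organ than the histone marks. The labels do not say how many mice gave each library. Since each group has 1 library per mark, differences could not be set against replicates or tested. The intervals below express the error of counting reads and nothing else.

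Thymocytes pass through a stage at which they carry both CD4 and CD8, and mature cells carry one of them. Cells of the CD4 lineage switch Cd8a and Cd8b1 off. Mature cells of the CD8 lineage express them through a set of enhancers in and around the pair of genes. Tcf1 and Lef1 are related DNA-binding proteins of T cells, and CD4-Cre acts from the stage with both co-receptors onward. Among the marks, H3K4me3 gathers at promoters in use, the acetyl marks H3K27ac and H3K9ac also at enhancers in use, and H3K27me3 over genes that Polycomb proteins keep silent. In cells sorted as a population, fewer cells carrying a mark and less of the mark per cell cannot be told apart.

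In the gene order of RefSeq, Cd8b1 lies next to Cd8a with 0 genes between them, Gm38828 is the neighbour of Cd8b1 and Rmnd5a that of Cd8a. This order comes from build GRCm38.p6. Exons and start sites were not placed on the mm9 islands, so sites are called here by their mm9 position, with the lower end of the window on the Cd8b1 side and the upper end on the Cd8a side. Marks close to Cd8b1 cannot be assigned between it and the non-coding gene Gm38828. RefSeq holds a promoter entry for Cd8a. The 250 bases before its start are shown because Tcf1 and Lef1 bind short words with the core CTTTG, which is in capitals:

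Cd8a: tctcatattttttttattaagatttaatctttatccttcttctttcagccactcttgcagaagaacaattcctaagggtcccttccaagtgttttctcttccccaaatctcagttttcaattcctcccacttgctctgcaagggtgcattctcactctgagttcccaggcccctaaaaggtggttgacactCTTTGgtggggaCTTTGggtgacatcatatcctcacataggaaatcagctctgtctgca

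The core CTTTG occurred 2 times on the shown strand and not on the other, beginning 59 and 47 bases before the start. At least 2 occurrences on either strand were found in 15.7% of the 32851 promoter entries of the same length. Longer words, the core followed by AA, AT, TA or TT, gave 0 matches on both strands, and 14.8% of entries hold at least 1 of them. The stretch has 42.8% GC and 0 CG dinucleotides, against medians of 52.4% and 6 over all entries. These are descriptions of the letters in this stretch and do not show a bound site.

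H3K4me3, the promoter mark, was found over the locus in both CD8 groups and not in WT CD4. WT CD8 had 5 islands that covered 7.0 kb with 196 reads, and DKO CD8 had 4 that covered 5.4 kb with 122 reads. WT CD4 had 0 islands in the 80 kb, where 49.9% of 31033 tiles of that length hold at least 1. The smallest island of its list held 10 reads, and its nearest islands lay 37.6 kb below (64 reads) and 49.6 kb above the window (43 reads). The files list no reads outside islands, so no ratio was formed with WT CD4.

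**Figure D1:**
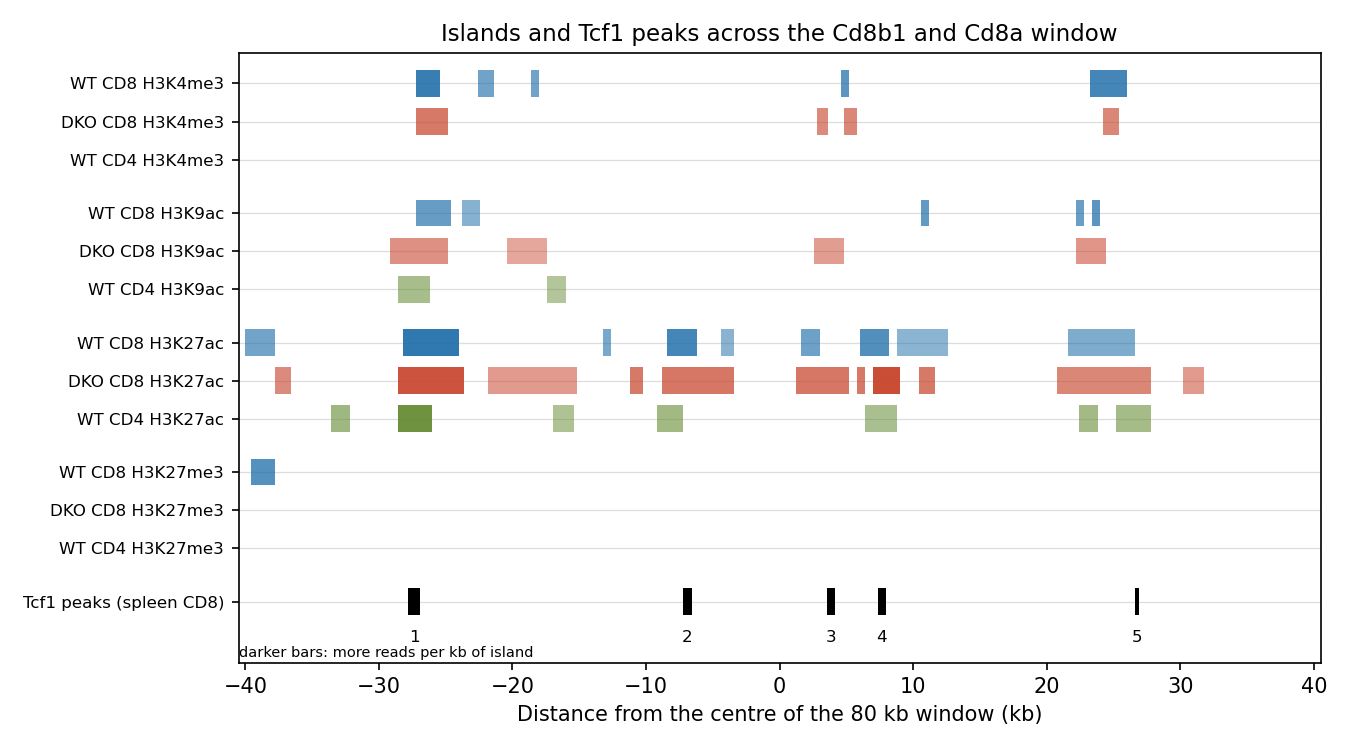
Islands of the 12 histone libraries and the 5 Tcf1 peaks (numbered) by distance in kb from the centre of the 80 kb window, with the Cd8b1 side on the left. Bars are single islands, blue for WT CD8, red for DKO CD8 and green for WT CD4, darker with more reads per kb. H3K4me3 bars appear in both CD8 rows and in no WT CD4 row.

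Merging islands of the 3 groups that share at least 1 bp gave 6 H3K4me3 regions. Of these, 3 had an island in both CD8 groups and not in WT CD4, a pattern held by 2.1% of the 76060 H3K4me3 regions of the genome. Another 2 had an island in WT CD8 alone (42.1% of the genome's regions) and 1 in DKO CD8 alone (18.5%). The share of regions with an island in all 3 groups was 7.91% over the genome and 0 of 6 here.

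On the Cd8b1 side, the H3K4me3 region chr6:71272801-71275200 held 60 reads in each CD8 group. Its log2 ratio of DKO CD8 to WT CD8 was -0.08 (95% interval -0.62 to 0.46) after division by 1.06, the median ratio of the 7608 regions called in both libraries. The interval of this ratio, as of all below, is an exact Clopper-Pearson interval given the sum of both counts. Reads at this region did not differ beyond counting error on that scale, and the ratio was 0.64 (0.098 to 1.18) on total island reads. The WT CD8 island was 1.8 kb wide and the DKO CD8 island 2.4 kb. Over the whole window DKO CD8 had the lower ratio, -0.76 (-1.10 to -0.43), which was -0.43 on the median of 80 kb tiles and -0.045 (-0.38 to 0.29) on total island reads.

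On the Cd8a side, the H3K4me3 region chr6:71323201-71326000 held 85 reads over 2.8 kb in WT CD8 and 25 reads over 1.2 kb in DKO CD8. DKO CD8 was thus the lower of the CD8 groups, at a log2 ratio of -1.84 (-2.55 to -1.19). It was also lower with total island reads as the scale (-1.13, -1.83 to -0.47). This was 1 of the 3 shared H3K4me3 regions of the window that were at least 2-fold lower, and 0 were at least 2-fold higher. Over the genome 7.4% of shared regions were at least 2-fold lower and 5.82% at least 2-fold higher. Part of the 85 reads lay where DKO CD8 had no island, and DKO CD8 reads there are unknown, so the ratio is not bounded by its interval.

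Between the ends, WT CD8 alone had H3K4me3 islands at chr6:71277401-71278600 (24 reads) and chr6:71281401-71282000 (12 reads). Near the middle of the window, chr6:71304601-71305800 held 15 WT CD8 reads and 21 DKO CD8 reads (log2 ratio 0.41, -0.62 to 1.47). DKO CD8 alone had an island at chr6:71302801-71303600, with 16 reads. Among all H3K4me3 islands of WT CD8, 24.1% held more reads than the 24-read island and 75.3% more than the 12-read island. Among those of DKO CD8, 34.4% held more than 21 reads and 54.7% more than 16.

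The missing WT CD4 islands can be set beside islands elsewhere with at least as many reads. In each such set, here and below, no other island has fewer reads than the window's island. Width was not matched, so the shares do not describe islands of the same strength. Of 932 other DKO CD8 H3K4me3 islands with at least 60 reads, 84.3% overlapped a WT CD4 island. Of 1622 other WT CD8 islands with at least 60 reads 38.5% did so, and of 460 with at least 85 reads 36.7%. An absent WT CD4 island was thus the less common outcome among DKO CD8 islands of at least this strength and the more common one among WT CD8 islands.

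H3K27ac, the mark of active promoters and enhancers, was present at the locus in all 3 groups and covered the most sequence in DKO CD8. WT CD8 had 9 islands over 22.6 kb, DKO CD8 11 over 35.6 kb and WT CD4 7 over 14.0 kb of the 80 kb. The window's islands held 508 reads for WT CD8, 858 for DKO CD8 and 312 for WT CD4, counting by length the island that crosses the window's edge. Unscaled, the density was 22.5 reads per kb of island for WT CD8, 24.1 for DKO CD8 and 22.3 for WT CD4. These densities do not allow for the reads at shared regions of the genome, whose median ratio to WT CD8 was 2.72 for DKO CD8 and 3.68 for WT CD4.

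**Figure D2:**
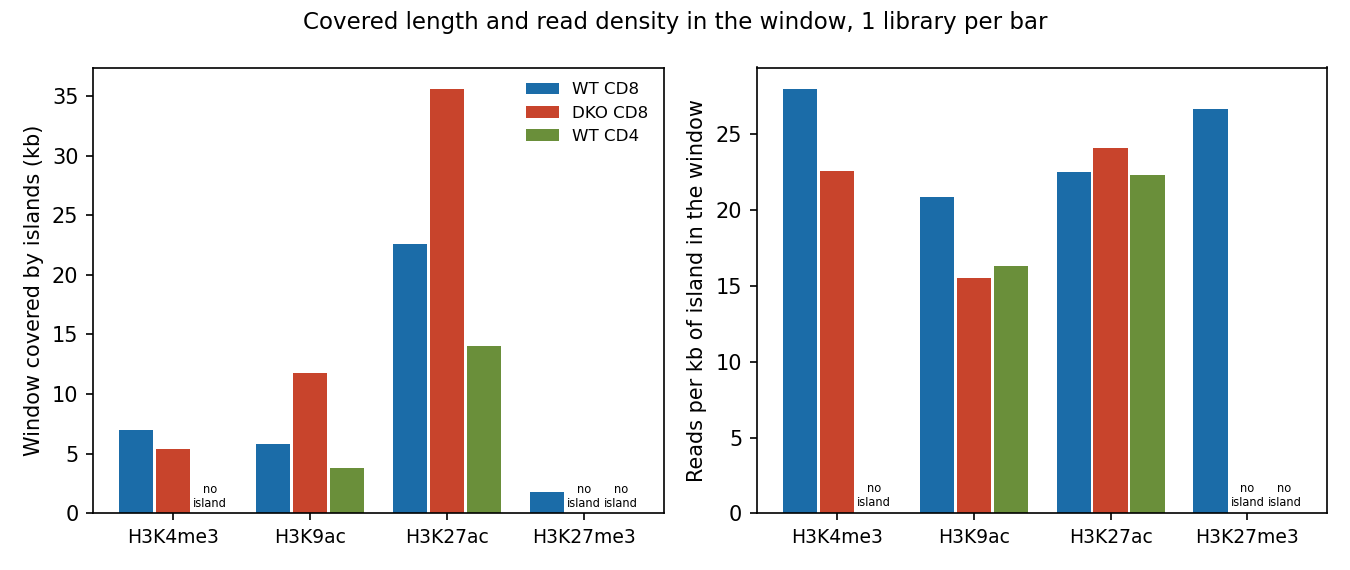
Left, kb of the window covered by islands, and right, unscaled reads per kb of island, for each mark and group, with 1 library per bar. For H3K27ac the covered length runs from 14.0 kb in WT CD4 to 35.6 kb in DKO CD8 while the unscaled densities lie between 22.3 and 24.1 reads per kb.

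By covered length the locus ranked high in CD8 cells. Of 31033 tiles of 80 kb that held any island, 0.126% had more H3K27ac-covered sequence than the window in the WT CD8 library. For DKO CD8 it was 0.113% and for WT CD4 3.28%. For H3K4me3 the share was 0.735% in WT CD8 and 0.570% in DKO CD8. For H3K9ac it was 0.477%, 0.0451% and 11.4% in the same order of groups. By reads per kb of island the window's H3K27ac was below the mean of its list in each group. It was 22.5 against 24.6 for WT CD8, 24.1 against 33.1 for DKO CD8 and 22.3 against 39.1 for WT CD4. WT CD8 was above its list for H3K4me3 (28 against 25.2) and H3K9ac (20.9 against 18.4). DKO CD8 was below its list for both (22.6 against 28.1 and 15.5 against 24.4), as was WT CD4 for H3K9ac (16.3 against 23.2). The tiles begin at fixed positions, whereas the window was set around the genes.

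WT CD4 was lower than both CD8 groups for H3K27ac. Relative to the median ratio of shared regions, the log2 ratio of window reads was -2.59 (-2.79 to -2.38) for WT CD4 over WT CD8, and 1.85 (1.66 to 2.05) for DKO CD8 over WT CD4. Both are past 2-fold, as were 34.8% of tiles in the same direction for the first comparison and 8.16% for the second. With total island reads as the scale, WT CD4 over WT CD8 was -0.99 (-1.20 to -0.78), just under 2-fold.

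DKO CD8 against WT CD8 gave no H3K27ac direction that held across scales. The log2 ratio of window reads was -0.69 (-0.85 to -0.52) on the median of shared regions, -0.15 (-0.31 to 0.01) on the median of 80 kb tiles and 0.83 (0.67 to 0.99) on total island reads. The raw figures behind it are 858 reads in DKO CD8 and 508 in WT CD8, and a median ratio of 2.72 in favour of DKO CD8 at the 11068 shared regions of the genome.

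**Figure D3:**
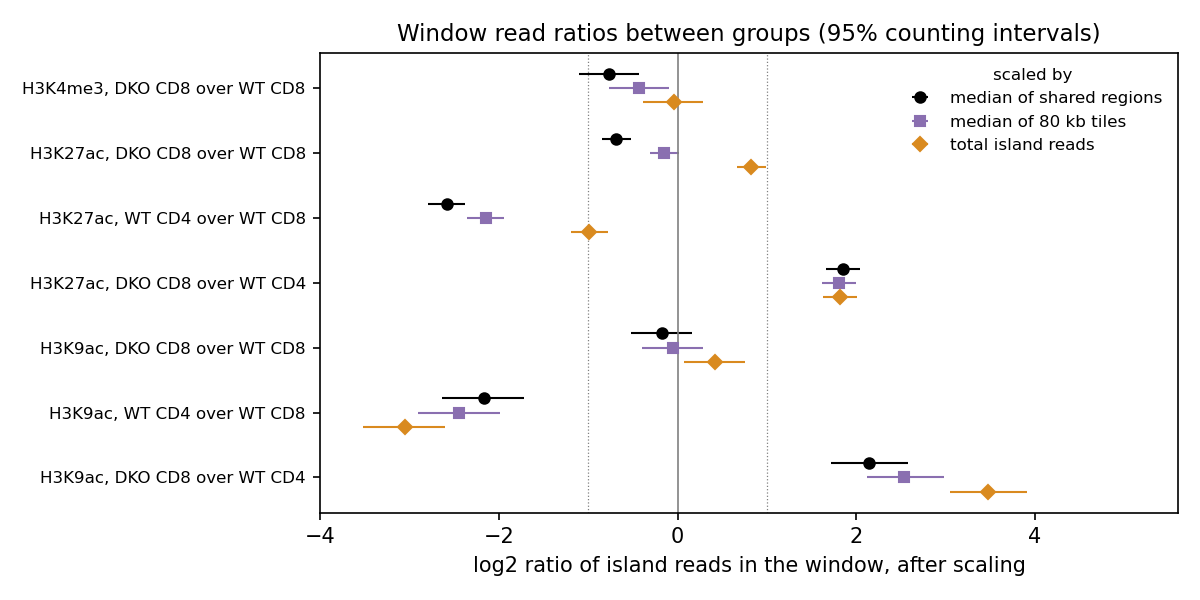
The log2 ratio of island reads in the window between groups, under 3 scales, with 95% exact intervals for counting error; dotted lines mark 2-fold. Ratios with WT CD4 keep their side of 0 on each scale, and H3K27ac and H3K9ac of DKO CD8 over WT CD8 cross 0.

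The H3K27ac islands merged into 12 regions. Islands of all 3 groups met at 4 of them, against 12.4% of the 79486 H3K27ac regions of the genome. There were 3 regions of DKO CD8 alone (13.9% over the genome), 2 of WT CD8 alone (54.6%), 1 of WT CD4 alone (8.19%), 1 of both CD8 groups without WT CD4 (1.27%) and 1 of DKO CD8 with WT CD4 (8.03%). The shared sites are described next in order along the chromosome, each with its Tcf1 peak.

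The strongest site lay at the Cd8b1 end. H3K27ac at chr6:71271401-71276400 held 148 reads for WT CD8, 177 for DKO CD8 and 101 for WT CD4. H3K9ac at chr6:71270801-71275400 held 58, 79 and 43 reads in the same order, and it was the only H3K9ac region of the window called in all 3 groups, as are 6.84% of H3K9ac regions over the genome. The H3K4me3 region of both CD8 groups lies inside it. WT CD4 thus kept both acetyl marks here without an H3K4me3 island, and was lower than WT CD8 at log2 ratios of -2.43 (-2.81 to -2.06) for H3K27ac and -1.64 (-2.24 to -1.04) for H3K9ac. The H3K27ac ratio shrank to -0.84 on total island reads, under 2-fold. In WT CD4 the H3K27ac island ended at 71274000, which is 2.0 kb short of the WT CD8 island and 2.4 kb short of that of DKO CD8.

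Tcf1 peak 1, chr6:71272194-71273073, fell in this site and was the strongest of the locus, with an authors' score of 270.6. It ranked 230 of 7807 peaks, so that 2.93% of all peaks scored higher. It overlapped islands of 8 of the 12 histone libraries, lying wholly inside H3K27ac in each group. Only 273 of its 880 bp lay in the H3K4me3 islands of either CD8 group.

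Next to it, chr6:71278201-71284800 was a broad H3K27ac region of DKO CD8, with 101 reads over 6.6 kb. WT CD4 had an island of 25 reads over 1.6 kb within it and WT CD8 had none. Of 5166 other DKO CD8 H3K27ac islands with at least 101 reads, 92.8% overlapped a WT CD8 island. Of 22618 other WT CD4 H3K27ac islands with at least 25 reads, 48.4% did so. WT CD8 had an H3K9ac island just below the stretch, chr6:71276201-71277600, with 21 reads. H3K9ac was called within it in DKO CD8 (chr6:71279601-71282600, 35 reads) and in WT CD4 (chr6:71282601-71284000, 19 reads), the islands abutting with no base in common. WT CD8 had no acetyl island within the stretch, but its H3K4me3 islands of 24 and 12 reads overlap it. No Tcf1 peak fell in the stretch.

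In the middle of the window, chr6:71290801-71296600 held 81 H3K27ac reads for WT CD8, 139 for DKO CD8 and 40 for WT CD4. The DKO CD8 island was 1 run of 5.4 kb, where WT CD8 had 2 islands of 2.2 and 1.0 kb and WT CD4 had 1 of 2.0 kb. Tcf1 peak 2, chr6:71292802-71293403, with a score of 135.19 and rank 1299, lay wholly inside the H3K27ac islands of WT CD8 and DKO CD8. The WT CD4 island ended at 71292800, with 1 bp between it and the peak. Neither H3K4me3 nor H3K9ac had an island at this site in any group.

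A site next to it, chr6:71301201-71305200, had islands of 3 marks in DKO CD8 and of H3K27ac and H3K4me3 in WT CD8. H3K27ac there held 29 reads over 1.4 kb in WT CD8, 102 reads over 4.0 kb in DKO CD8, and no island in WT CD4. Of 5100 other DKO CD8 H3K27ac islands with at least 102 reads, 5054 (99.1%) overlapped a WT CD4 island. From the WT CD8 side an absent WT CD4 island was the more common outcome. Of 23956 other WT CD8 H3K27ac islands with at least 29 reads, 26.6% overlapped a WT CD4 island. DKO CD8 over WT CD8 had a log2 ratio of 0.37 (-0.23 to 1.02) on the median of shared regions and of 1.88 (1.28 to 2.53) on total island reads. The first is within counting error of 0. It was the 1 shared H3K27ac region of the window with a ratio above 0 on the median of shared regions. DKO CD8 also had an H3K9ac island here (chr6:71302601-71304800, 32 reads) and the H3K4me3 island of 16 reads, neither of which overlapped a wild-type island of the same mark. The shared H3K4me3 region of 15 and 21 reads begins within the same site.

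Tcf1 peak 3, chr6:71303569-71304129, lay at this site, with a score of 71.17 and rank 4368. In DKO CD8 all 561 bp of it were inside H3K27ac and inside H3K9ac. In WT CD8 the H3K27ac island ended at 71303000, so the peak overlapped no wild-type thymocyte island of any mark. It was the only 1 of the 5 peaks with overlaps in DKO CD8 alone. How many of all 7807 peaks have this pattern was not computed, so it cannot be called unusual.

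Further toward Cd8a, chr6:71305801-71312600 held 112 H3K27ac reads for WT CD8, 120 for DKO CD8 and 41 for WT CD4. Here WT CD8 covered more sequence, 6.0 kb against 3.8 kb in DKO CD8 and 2.4 kb in WT CD4, and the unscaled density was 31.6 reads per kb in DKO CD8 against 18.7 in WT CD8. On the median of shared regions DKO CD8 had the lower ratio of reads, -1.34 (-1.73 to -0.96). WT CD8 alone had an H3K9ac island, chr6:71310601-71311200, with 14 reads. Tcf1 peak 4, chr6:71307343-71307948, with a score of 76.46 and rank 3888, lay wholly inside H3K27ac in all 3 groups.

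At the Cd8a end, chr6:71320801-71327800 held 84 H3K27ac reads over 5.0 kb in WT CD8, 145 over 7.0 kb in DKO CD8 and 76 over 4.0 kb in WT CD4. H3K9ac at chr6:71322201-71324400 held 28 reads in WT CD8, as 2 islands, and 37 in DKO CD8 as 1 island (log2 ratio -0.37, -1.12 to 0.39), with no WT CD4 island. That pattern, both CD8 groups without WT CD4, was held by 0.247% of the 39657 H3K9ac regions of the genome. Of 2631 other DKO CD8 H3K9ac islands with at least 37 reads, 88.7% overlapped a WT CD4 island. The 2 WT CD8 islands held 13 and 15 reads. Of other WT CD8 H3K9ac islands with at least as many, 46.2% and 48.1% overlapped a WT CD4 island. With islands above their list's median reads, 0 H3K9ac regions of the window kept this pattern. The site thus had H3K4me3 and H3K9ac islands called in the CD8 groups only, and H3K27ac islands in each group. The lower H3K4me3 of DKO CD8 here stood beside an H3K27ac island 2.0 kb longer than that of WT CD8. By reads, H3K27ac of DKO CD8 over WT CD8 here was also below 0 on the median of shared regions. The log2 ratio was -0.65 (-1.05 to -0.25), and 0.86 (0.46 to 1.26) on total island reads.

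Tcf1 peak 5, chr6:71326574-71326935, was the weakest of the locus, with a score of 63.15 and rank 5338. It lay wholly within H3K27ac of DKO CD8 and WT CD4, while the WT CD8 island reached over 27 of its 362 bp.

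**Figure D4:**
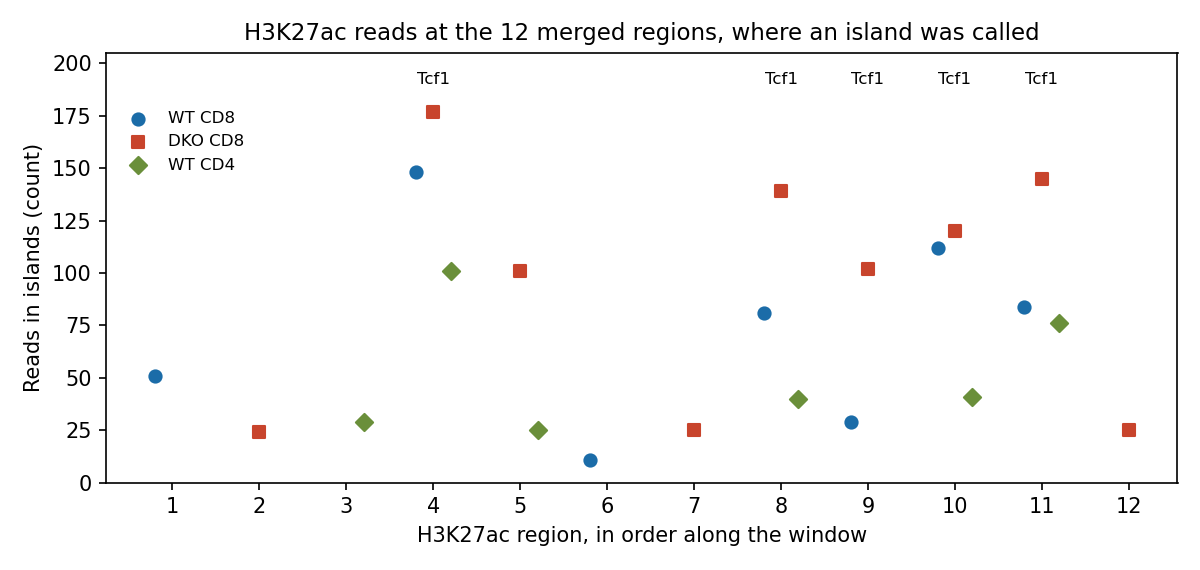
H3K27ac island reads (count) at the 12 merged regions in order from the Cd8b1 to the Cd8a side, 1 point per group where an island was called; "Tcf1" marks regions with a peak. DKO CD8 is highest in raw reads wherever groups share a region, from 101 to 177 reads, and WT CD4 is lowest where it has an island.

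Over the window's merged H3K27ac regions with islands of both libraries, 4 of 4 were at least 2-fold lower in WT CD4 than in WT CD8. Their median log2 ratio was -2.67. Over the genome, where only the compared libraries were merged, 13.5% were that much lower and the median is 0 by construction. The window's regions can thus include islands joined only through the third group. WT CD8 islands of 14 reads (chr6:71295601-71296600) and 52 reads (chr6:71308801-71312600) overlapped no WT CD4 island. Neither did DKO CD8 islands of 15 and 30 reads at chr6:71305801-71312600. These islands enlarge the ratios with WT CD4, and ratios without them were not computed. On total island reads 2 of these 4 remained at least 2-fold lower, the exceptions being the Cd8b1 end (-0.84) and the Cd8a end (-0.43). The 2 that remained are those with the WT CD8 islands of 14 and 52 reads, so this count depends on including them. DKO CD8 was at least 2-fold higher than WT CD4 at 5 of 5 (4.3% over the genome), with ratios from 1.20 to 2.41. Between DKO CD8 and WT CD8, 2 of 5 were at least 2-fold lower in DKO CD8 (15.2% over the genome) and 0 higher (8.08%). These 2, at the Cd8b1 end (-1.18) and at chr6:71305801-71312600 (-1.34), turned to 0.33 and 0.17 on total island reads, and the shared regions at chr6:71290801-71296600 and the Cd8a end, from -0.66 and -0.65, to 0.85 and 0.86. The comparisons share libraries, so their values are not independent.

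The remaining H3K27ac regions were of 1 group each. WT CD8 alone had islands at chr6:71259601-71262200 (51 reads, with 16.2% of its list above it) and chr6:71286801-71287400 (11 reads, with 96.0% above it). DKO CD8 alone had them at chr6:71262201-71263400 (24 reads), chr6:71288801-71289800 (25 reads) and chr6:71330201-71331800 (25 reads), and WT CD4 alone at chr6:71266401-71267800 (29 reads). None of these 6 held a Tcf1 peak. With 7807 peaks against 79486 merged H3K27ac regions over the genome, most regions hold none. The share among regions of 1 group was not computed.

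Over the window, H3K9ac islands of WT CD8 covered 5.8 kb with 121 reads. Those of DKO CD8 covered 11.8 kb with 183 reads, and those of WT CD4 3.8 kb with 62 reads. The WT CD4 list is the longest of the 3, with 32651 islands against 9860 in WT CD8 and 6516 in DKO CD8, yet held the fewest here. The log2 ratio of window reads was -2.17 (-2.64 to -1.72) for WT CD4 over WT CD8 and 2.15 (1.72 to 2.59) for DKO CD8 over WT CD4. The 1 H3K9ac region called in all groups was at least 2-fold lower in WT CD4 than in WT CD8 (11.4% over the genome) and at least 2-fold higher in DKO CD8 than in WT CD4 (6.07%). Over the genome 13.6% of tiles were at least 2-fold lower in the first comparison and 8.35% at least 2-fold higher in the second. DKO CD8 and WT CD8 did not differ beyond counting error on the median of shared regions (-0.18, -0.52 to 0.17), and DKO CD8 was higher on total island reads (0.42, 0.08 to 0.76). Of 2 shared H3K9ac regions of these groups, 0 were past 2-fold, where 3.56% of regions over the genome were lower and 3.95% higher. The 7 merged H3K9ac regions included 2 of WT CD8 alone (13.2% over the genome), 2 of DKO CD8 alone (4.56%) and 1 of WT CD4 alone (66.1%).

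For H3K27me3, the Polycomb mark, WT CD8 had 1 island, chr6:71260401-71262200, with 48 reads at the lower edge of the window, and DKO CD8 and WT CD4 had 0. Having 0 islands is the usual outcome in those lists, as 39.7% of the 80 kb tiles hold an island of DKO CD8 and 42.8% one of WT CD4. In WT CD8 44.0% of tiles held more reads than the window. Regions of WT CD8 alone make up 33.9% of H3K27me3 regions over the genome. All 1.8 kb of this island lay inside the WT CD8 H3K27ac island of 51 reads at the window's edge. Both marks were thus called on the same sequence in 1 group, and neither on that sequence in the other groups. A DKO CD8 H3K27ac island of 24 reads, chr6:71262201-71263400, began at the next base. H3K27me3 at a level below the calling threshold was not detectable in these files.

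The marks were also looked at in combination. H3K4me3, H3K27ac and H3K9ac islands coincided over 2.4 kb for WT CD8, 3.4 kb for DKO CD8 and 0 kb for WT CD4. The WT CD4 value follows from its missing H3K4me3 islands and adds nothing to them. The shares below were not set beside the rest of the genome. At least 1 of these marks covered 32.8% of the window for WT CD8, 46.0% for DKO CD8 and 18.0% for WT CD4. In DKO CD8 94.9% of H3K9ac sequence lay inside H3K27ac islands, against 75.9% in WT CD8 and 89.5% in WT CD4. H3K4me3 sequence lay inside H3K27ac islands for 88.9% in DKO CD8 and 65.7% in WT CD8.

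By shared sequence, the H3K27ac map of DKO CD8 at this locus overlapped WT CD8 (Jaccard index 40.6%, shared over joint bp) more than WT CD4 (30.5%). By share of each map the order differed, since DKO CD8 islands held 74.3% of the WT CD8 sequence and 82.9% of the shorter WT CD4 sequence. Over the whole lists the Jaccard order was the opposite of that in the window, 12.9% with WT CD8 and 38.5% with WT CD4. For H3K4me3 the index of DKO CD8 with WT CD8 was 37.8% in the window and 12.5% over the lists, and with WT CD4 0% and 16.0%. For H3K9ac it was 25.7% in the window with WT CD8 and 18.2% with WT CD4, against 15.9% and 12.3% over the lists. No test was made of these differences between the locus and the lists.

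The 5 Tcf1 peaks stood 3.21 to 19.7 kb apart. At least 5 peaks, counted by their centres, occurred in 92 of the 31033 tiles (0.296%). Here too the tiles begin at fixed positions and the window was set around the genes, so the share is not a rank. By score, 3 of the 5 reached the list's median of 76.41. H3K27ac islands of DKO CD8 held 5 of 5 peaks, those of WT CD8 4 and those of WT CD4 3, while over the whole list they held 74.8%, 55.8% and 81.5%. H3K4me3 islands held 1 peak for WT CD8, 2 for DKO CD8 and 0 for WT CD4, against 34.5%, 35.5% and 41.6% of all peaks. H3K27me3 islands held 0 in each group, against 3.34%, 7.71% and 5.73%.

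The 3 tiles of the genome whose island reads, scaled to each list's total, varied most like those of the window over the 12 libraries were chr3:153040001-153120000 (Pearson's r 0.96), chr3:137760001-137840000 (0.93) and chr17:7200001-7280000 (0.93). They were drawn from 14200 tiles with islands in at least 6 libraries. The correlation is a description over libraries that share groups and marks, and the genes in these tiles were not placed.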

How the data were processed

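ChIP-seq libraries of 4 histone marks in 3 thymocyte groups and a Tcf1 library of splenic CD8 cells were used. Build mm9 and the tools SICER 1.1, MACS 1.4.2, Bowtie2 2.2.5 and FastQC come from the submitters' processing notes, which assign them no roles. The labels state that unnamed samples were resequenced. The deposited island lists give the authors' read count per island, whole and not normalized, on a 200 bp grid. Tcf1 peaks carry a score set by the authors, used within that list only. Inputs were not analysed here. Depth is known only as reads within islands, 248234 (WT CD8 H3K9ac) to 4025243 (WT CD4 H3K27me3). Depth and calling settings can change the number and length of islands, and with them covered length and every scale.

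Islands sharing at least 1 bp were merged, over the 3 groups for regions of the window and for patterns of groups. For scales and for the genome's shares past 2-fold, only the compared libraries were merged. Ratios of reads were divided by the median ratio of regions called in both libraries and set beside a 2-fold threshold, with exact Clopper-Pearson intervals at 95%. These cover counting error only, and reads are not independent molecules. Every region and peak of the window was accounted for. Described in full were regions with several marks or a Tcf1 peak and regions of 1 or 2 groups with at least 50 reads. Others are given by position and reads. Tiles most like the window were those with the highest Pearson correlation of log2(RPM of island reads + 1), centred per library. The window, lists and rules were chosen with earlier results of these data known. An mm9 annotation was not used here, so the planned check of Cd4, Zbtb7b, Cd3e, Cd3d and Cd3g was not made. On simulated counts for H3K27ac of DKO CD8 over WT CD8 (11068 regions), 3-fold changes were recovered past 2-fold in 100% of raised and 95% of lowered regions. For H3K4me3 of the same groups (7608 regions) the shares were 98% and 85%. Unchanged regions passed 2-fold in 1.27% of cases for H3K27ac and 1.88% for H3K4me3. The simulation held counting error alone, at regions called in both libraries. It therefore does not show how well changes are recovered where libraries differ or islands go uncalled. Window overlaps equalled those of bedtools 2.31.1. Python 3.11.15, numpy 2.4.6, SciPy 1.17.1 and matplotlib 3.10.9 were used.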

Additional observations from a re-analysis of the deposited data

How the results depend on the processing

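On total island reads the ratios of window reads were -0.045 (H3K4me3, DKO CD8 over WT CD8), 0.83, -0.99 (H3K27ac, DKO CD8 and WT CD4 over WT CD8), 0.42, -3.06 (H3K9ac, the same) and 3.47 (H3K9ac, DKO CD8 over WT CD4). On the median of 80 kb tiles 3 moved beyond their interval: -0.43 for H3K4me3, and -0.15 and -2.15 for H3K27ac of DKO CD8 and WT CD4 over WT CD8. With islands above their list's median reads, the H3K27ac ratios were -0.88, -4.20 and 3.28 (DKO CD8 over WT CD8, WT CD4 over WT CD8, DKO CD8 over WT CD4), and at equal covered length the first and second were -0.22 and -2.13. Counting whole islands at the window's edge, or asking for a 50% overlap at shared regions, moved none of the 7 ratios beyond its interval. Of the single regions, H3K27ac of DKO CD8 over WT CD8 turned from below to above 0 on total island reads at the 4 shared regions below 0: 0.33 at the Cd8b1 end, 0.85 at chr6:71290801-71296600, 0.17 (-0.21 to 0.55) at chr6:71305801-71312600 and 0.86 at the Cd8a end. Recomputing single regions on other scales was added after the data were seen. The cause of these shifts was not tested.

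At equal covered length WT CD8 H3K27ac covered 12200 bp and WT CD4 H3K9ac 0 bp, so H3K9ac ratios with WT CD4 could not be formed there. With islands above the list's median, WT CD4 covered 2600 bp for H3K27ac and 2400 bp for H3K9ac, and WT CD8 0 bp for H3K27me3. The same filter left 7 H3K27ac regions (1 in every group, 4 in both CD8 groups without WT CD4), 4 H3K9ac regions (0 in both CD8 groups without WT CD4) and 0 of H3K27me3. Joining islands up to 1000 bp apart moved no count of regions by over 1.5 times. Of the Tcf1 peaks, 3 scored at least the list's median. With at least 50% of a peak inside an island, H3K4me3 held 0 in WT CD8 and 0 in DKO CD8, and H3K9ac 0 in WT CD8. Ratios for H3K4me3 with WT CD4 and for H3K27me3 could not be formed, as 1 or both libraries had no island. No paired analysis was possible because each group had 1 library per mark. Most islands here hold under 100 reads, so single-site ratios are coarse, and reads outside islands are unknown.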
